A study of Caenorhabditis elegans with 2 samples.

Results

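The genes described here encode the spliceosome and its associated splicing factors, taken as the protein-coding *Caenorhabditis elegans* genes whose symbols begin with snr, rsp, prp, snrp, uaf, sfa, repo, sftb, sap or snu followed by a number. This rule found 45 of 19973 nuclear protein-coding genes of the Ensembl annotation of WBcel235. Their promoters were examined for binding of ATTF-5, whose name stands for an AT-hook transcription factor, in chromatin immunoprecipitation followed by sequencing (ChIP-seq). Chromatin came from whole young adults of mixed sex at 66 hours, synchronised as starved L1 larvae after bleaching. The strain, OP724, carried the integrated transgene wgIs724, in which attf-5 is joined to a TY1::EGFP::3xFLAG tag and comes with unc-119(+), in the unc-119(tm4063) background, and an antibody against GFP recovered the tagged protein. The 2 biological replicates, which the labels number 1 and 3, are of the same transgenic line and form 1 group, so no conditions were compared.

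The authors' thresholded list holds 3331 peaks that passed their test of reproducibility between the replicates, and lists that also hold weaker regions were deposited for each replicate and for both pooled. Each region has a summit and a signal, which is the authors' enrichment value in a scale of their own. A gene was called bound when at least 1 thresholded summit lay between 1000 bp upstream and 200 bp downstream of its annotated 5′ end. The sources used here do not give read depth, so the precision of single signals is known only from the replicates. As worms were taken whole, strong binding in few cells and weak binding in many cannot be told apart.

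As background, the spliceosome removes introns from pre-mRNA and is assembled anew on each intron from small nuclear ribonucleoproteins (snRNPs), named U1, U2, U4, U5 and U6 after their RNAs. U1 marks the 5′ splice site, U2 and its helper proteins mark the branch point and the 3′ splice site, and the tri-snRNP of U4, U5 and U6 then joins to form the catalytic core. SR proteins bind exons and help recruit these particles. In *C. elegans* the same machinery also joins spliced leader RNAs to many messages, which separates the transcripts of genes that share an operon.

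ATTF-5 was bound at the promoters of 24 of the 45 splicing genes (53.3%), beside 12.3% of all protein-coding genes. The strongest were prp-19, which encodes a ubiquitin ligase of the spliceosome, with a signal of 726; the neighbouring SR protein genes rsp-1 and rsp-2, with 574 at a single peak between them; prp-8, which encodes the central protein of the U5 snRNP, with 565; and snr-1, which encodes a protein of the Sm ring, with 438. The 24 genes had 22 distinct strongest peaks, since rsp-1 and rsp-2 share 1 and rsp-7 and snu-13 share another. All 7 functional classes into which the genes were sorted held both bound and unbound members. These shares describe the genes and were not tested against chance, because the genes were chosen with earlier results of these data known.

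**Figure D1:**
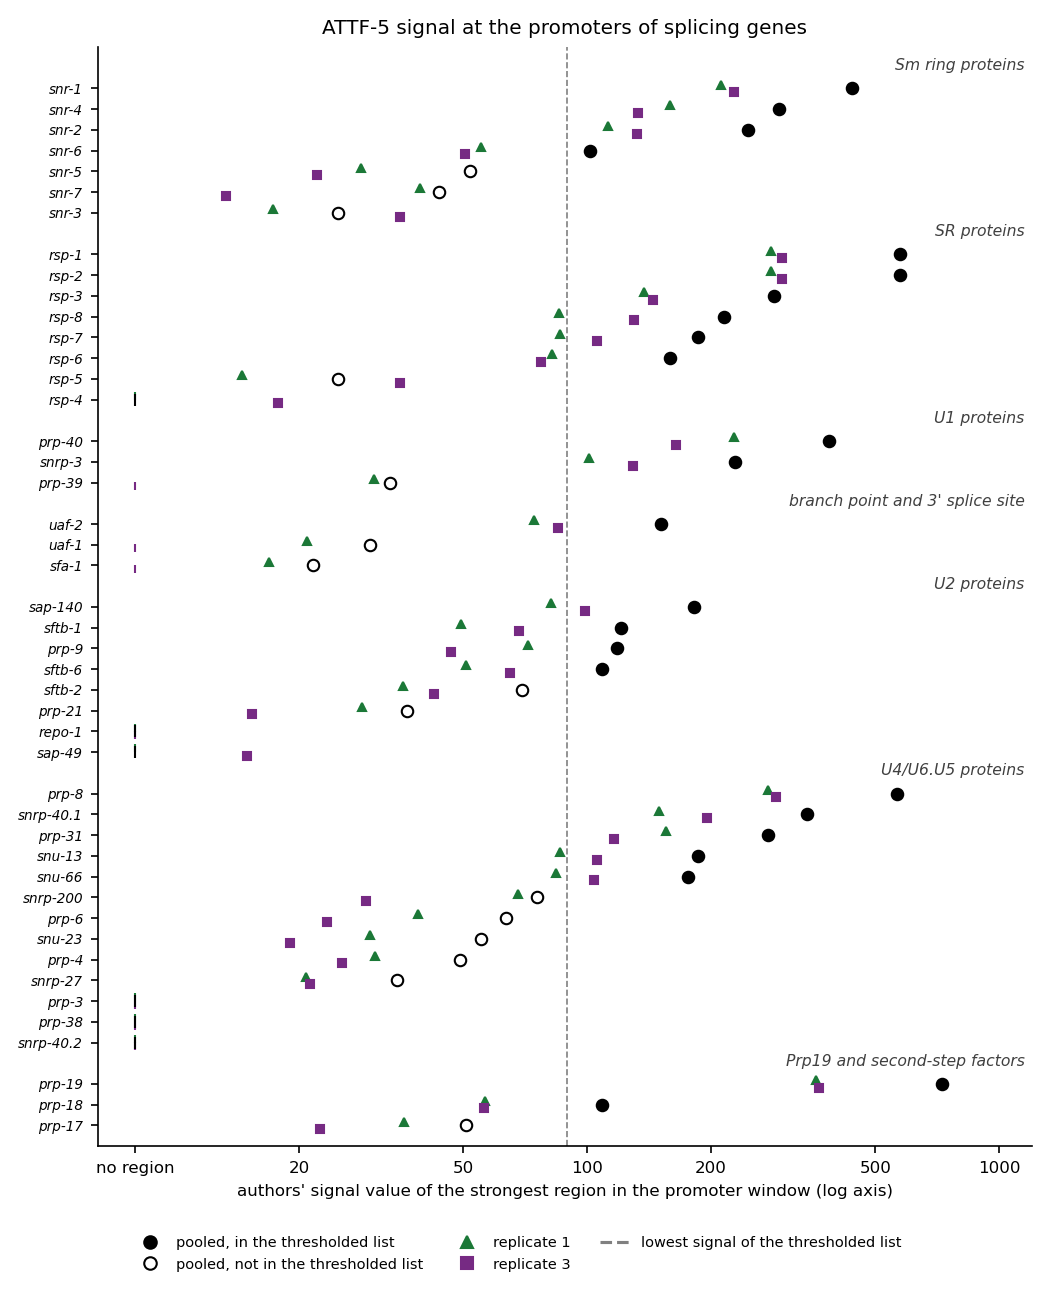
Signal of the strongest region in the promoter window of each of the 45 splicing genes, by functional class, on a log axis. Filled circles are the 24 genes with a peak of the thresholded list, open circles are genes whose strongest pooled region did not pass, triangles are replicate 1 and squares replicate 3. Bars at the left mark lists with no region in the window, and the dashed line is the lowest signal of the thresholded list, 89.6.

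The sequences of the 4 strongest peaks, and of the other peak shared by 2 splicing genes, are given for the 201 bp centred on each summit, from the plus strand of the RefSeq assembly of WBcel235, which is the same build as the ce11 coordinates of the lists. Capitals mark matches on either strand to any of 5 words of 6 letters described further on, which are the word GAGAGA, the word ACGCAG, the word GAGCGC, the word TTCGAA and the word AACGCG. The windows lie at chrIII:5172584-5172784 for prp-19, chrII:11453094-11453294 for rsp-1 and rsp-2, chrIII:8163953-8164153 for prp-8, chrIV:17087561-17087761 for snr-1, and chrII:10658835-10659035 for rsp-7 and snu-13.
prp-19: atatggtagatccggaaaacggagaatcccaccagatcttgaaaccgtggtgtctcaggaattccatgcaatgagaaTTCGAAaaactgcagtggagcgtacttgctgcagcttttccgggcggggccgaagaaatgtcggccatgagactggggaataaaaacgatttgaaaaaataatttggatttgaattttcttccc
rsp-1 and rsp-2: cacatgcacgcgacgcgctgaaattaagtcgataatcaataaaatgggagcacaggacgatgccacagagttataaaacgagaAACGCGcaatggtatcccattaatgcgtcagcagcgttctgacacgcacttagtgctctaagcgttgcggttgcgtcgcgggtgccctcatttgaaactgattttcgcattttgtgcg
prp-8: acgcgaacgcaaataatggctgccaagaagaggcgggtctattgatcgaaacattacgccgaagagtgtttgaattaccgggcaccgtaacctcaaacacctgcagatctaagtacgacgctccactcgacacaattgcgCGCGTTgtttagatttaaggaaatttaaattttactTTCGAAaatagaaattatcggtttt
snr-1: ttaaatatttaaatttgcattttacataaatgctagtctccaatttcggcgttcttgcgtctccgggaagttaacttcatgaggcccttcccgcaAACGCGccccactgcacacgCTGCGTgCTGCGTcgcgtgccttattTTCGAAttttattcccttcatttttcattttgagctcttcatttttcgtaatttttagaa
rsp-7 and snu-13: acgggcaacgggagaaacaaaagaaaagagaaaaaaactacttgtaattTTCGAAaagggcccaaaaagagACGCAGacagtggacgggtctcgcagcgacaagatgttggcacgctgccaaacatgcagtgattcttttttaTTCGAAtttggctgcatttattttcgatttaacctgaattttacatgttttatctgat
Each of the 5 windows holds TTCGAA or the other word, AACGCG, and some hold both. The snr-1 window has the most matches of the 5, with both words and 2 copies of ACGCAG read on the minus strand, where they appear as CTGCGT. The sequence at each summit was poorer in A and T than the flanks that lie beyond the windows shown. Within 50 bp of the summit the share of A and T was 48.5% at prp-19, 50.5% at rsp-1 and rsp-2, 50.5% at prp-8, 43.6% at snr-1 and 51.5% at rsp-7 and snu-13, beside 63.0% to 73.0% in the flanks at 150 to 200 bp.

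The Sm ring is a ring of small proteins around the RNA of the U1, U2, U4 and U5 snRNPs, and 4 of its 7 genes were bound. At snr-1 (SmD3; IV:17087494-17087803) the signal was 438, with 211 in replicate 1 and 227 in replicate 3, and the summit lay 388 bp upstream, in a promoter region shared with the sorting nexin gene snx-13. At snr-4 (SmD2; V:11979948-11980160) the signal was 292, with 159 and 133 in replicates 1 and 3, and the summit lay 372 bp upstream within the noncoding RNA gene C52E4.14. The snr-4 promoter was the only one of the 24 with a second summit, at 576 bp upstream with a signal of 135. At snr-2 (SmB; I:13338919-13339133) the signal was 246, with 112 and 132 in the replicates, and the summit lay 365 bp upstream and also in the window of W08E3.4. The remaining bound gene, snr-6 (SmE), had the weakest peak of the 24, with 102, 207 bp upstream. Each protein is known to be present once in a ring. The genes of the other 3, snr-3 (SmD1), snr-5 (SmF) and snr-7 (SmG), had no thresholded peak, and their strongest pooled regions had signals of 24.9, 51.9 and 43.8.

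SR proteins bind exonic RNA through an RNA recognition motif and carry a tail of arginine and serine repeats. Of 8 rsp genes 6 were bound, which was the largest share among the classes with this window. The order of the classes changed under other rules given further on. With the nearest 5′ end rsp-2 and rsp-3 were lost, and with the first gene of a run rsp-6 was lost. The genes rsp-1 and rsp-2 lie head to head, and their shared peak (II:11452993-11453381) had signals of 279 in replicate 1 and 296 in replicate 3. Its summit lay 168 bp upstream of rsp-1 and 239 bp upstream of rsp-2, between the 2 genes. At rsp-3, whose product is of the ASF/SF2 type, the peak (III:12688091-12688331) had a signal of 284, with 138 and 144 in the replicates, at 294 bp upstream, and it also lay in the window of spin-4. At rsp-8 the peak (III:11825759-11825923) had a signal of 215, with 85.4 in replicate 1 and 130 in replicate 3, at 553 bp upstream. Replicate 3 was thus the higher at rsp-8, while the replicates were close at rsp-3. At rsp-7 the peak shared with snu-13 had a signal of 185 at 271 bp upstream, within the noncoding RNA gene M28.13. At rsp-6 the signal was 159 at 159 bp upstream. The other two, rsp-4 (SC35 type) and rsp-5, were not bound. A second head-to-head pair, snr-3 and rsp-5, shares a pooled region, with a signal of 24.9, and a region of replicate 3 with 35.3, so a shared promoter did not by itself go with a peak.

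For U1, which recognises the 5′ splice site, 2 of 3 genes were bound. At prp-40, whose product is associated with U1, the peak (III:9521765-9522045) had a signal of 386 at 187 bp upstream, and the peak is shared with clu-1. Replicate 1 was higher there, with 227 against 164 in replicate 3. At snrp-3, which encodes protein C of the U1 snRNP, the peak (IV:8687859-8688070) had a signal of 229 at 157 bp upstream, with 101 in replicate 1 and 129 in replicate 3. The third, prp-39, had a pooled region of 33.2 and none in replicate 3. Of the 3 genes for recognition of the branch point and 3′ splice site, uaf-2, which encodes the small subunit of U2AF, had a peak of 151 at 49 bp upstream, with 74.2 and 84.9 in the replicates. Its partner uaf-1, the large subunit, had only a pooled region of 29.7, and sfa-1, which encodes the branch point binding protein SF1, one of 21.6. The 2 subunits of U2AF thus fell on opposite sides of the threshold.

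Of the 8 genes for proteins of the U2 snRNP 4 were bound, with signals from 109 to 181. At sap-140, a U2-associated protein, the signal was 181 at 50 bp upstream, and the replicates gave 81.8 and 98.8. At sftb-1, which encodes the largest SF3B subunit, the signal was 121, with 49.5 and 68.4 in the replicates, and the summit lay in the 5′ UTR of the opposite gene R10E4.1, 473 bp upstream of sftb-1. At prp-9, a subunit of SF3A, the signal was 118 at 71 bp upstream, with 72.1 in replicate 1 and 46.7 in replicate 3. At sftb-6 the signal was 109 at 250 bp upstream, with 65.1 in replicate 3 and no replicate 1 summit within 100 bp. This was the only bound splicing gene not supported by a nearby summit in both replicates. The strongest region of replicate 1 elsewhere in the sftb-6 window had 50.9. The sftb-6 peak also lay in the windows of luc-7L3 and C50D2.10. The unbound U2 genes were sftb-2, with a pooled region of 69.7, prp-21 with 36.5, sap-49 and repo-1.

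Of the 13 genes for proteins of the U4/U6.U5 tri-snRNP 5 were bound. With this window that was the smallest share among the classes, apart from the 1 of 3 for the branch point and 3′ splice site. The order did not hold with the first gene of a run, described further on. That rule gained prp-3, prp-38, snrp-200, snrp-27 and snrp-40.2 and lost none of these 13 genes. At prp-8 the peak (III:8163880-8164217) had a signal of 565, with 275 in replicate 1 and 288 in replicate 3, at 320 bp upstream, and it is shared with bath-42 on the other strand. At snrp-40.1, which encodes a U5 protein, the peak (X:11299689-11299899) had a signal of 341, with 149 and 195 in the replicates. This summit lay 8 bp downstream of the 5′ end, in the 5′ UTR, and was the only one of the 24 that was not upstream. At prp-31, which encodes a U4/U6 protein, the peak (I:5127485-5127761) had a signal of 274, with 156 and 116, at 241 bp upstream in the promoter region shared with mat-1, a gene of the anaphase-promoting complex. At snu-13, whose product binds the U4 RNA, the peak of 185 is the one shared with rsp-7, with 86.2 in replicate 1 and 106 in replicate 3. At snu-66 the signal was 176 at 109 bp upstream, and the replicates differed: 104 in replicate 3, while the matched summit of replicate 1 lay 95 bp away with 29.1. The strongest region of replicate 1 in that window had 84.2.

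The Prp19 complex and the second-step factors act in the activated spliceosome. The prp-19 peak (III:5172530-5172887) ranked 36 of 3331 by signal, and the replicates gave 358 and 366. Its summit lay 639 bp upstream of prp-19, the farthest of the 24, and only 36 bp upstream of K10D2.5 on the other strand. The summit also lay in the window of emb-1 on that other strand. The assignment to prp-19 thus rests on the width of the window. At prp-18, a second-step factor, the signal was 109 at 88 bp upstream, with 56.7 and 56.3 in the replicates, and the third gene, prp-17, was unbound with a pooled region of 50.8.

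The 21 unbound genes were not devoid of signal, and 15 of them had a region of the pooled list in the window. The share of all unbound genes with such a region was not computed. In the pooled list 39 of the 45 splicing genes had a region, beside 38.6% of all genes. In replicate 1 the count was 39, beside 38.7%, and in replicate 3 it was 38, beside 40.0%. Regions in both replicates were found for 36, beside 28.6%. These lists include background by their labels, so a region in them is not a peak. The unbound genes nearest to the threshold were snrp-200, which encodes the Brr2 helicase of U5, with 75.6, sftb-2 with 69.7 and prp-6 with 63.6, beside 102 for the weakest bound gene. Lower still were snu-23 with 55.4, prp-4 with 49.1 and snrp-27 with 34.6. No pooled region was found for snrp-40.2, rsp-4, sap-49, prp-3, repo-1 and prp-38. Of these, rsp-4 had a region of 17.8 and sap-49 one of 15 in replicate 3, and the other 4 had none in any list. The paralogues snrp-40.1 and snrp-40.2 thus differed as far as the lists allow, with a signal of 341 at the former and no region at the latter. Some peaks lay just beyond the window. The peak 1094 bp upstream of snu-23 had a signal of 116 and lay in the window of no gene. The peak 1302 bp upstream of rsp-4 had 222 and lay in the window of ndx-6. The peak 1467 bp upstream of sftb-2 had 154 and lay in the window of W03F9.1.

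Many of the unbound genes were not the first of a run of genes. A run was taken as neighbouring protein-coding genes on the same strand with gaps under 500 bp, which resembles an operon but is not an annotated one. Of the 21 unbound splicing genes 10 were not first in their run (47.6%), beside 20.5% of all unbound genes, and of the 24 bound ones 2 were not, beside 354 of all 2461 bound genes. For 9 of these 10 the first gene of the run was itself bound, beside 854 of 3584 (23.8%) such unbound genes in the genome. The strongest of these upstream peaks were at plrg-1, a gene of the Prp19 complex that precedes prp-38, with 533, at hmgs-1 before prp-39 with 359, at ubh-4 in the run of sap-49 with 290, and at smrd-1 before prp-3 with 255. Others were at ran-4 in the run of snrp-27 with 238, at suco-1 in that of snrp-40.2 with 219, at lex-1 before repo-1 with 164 and at pisy-1 before snrp-200 with 103. The run of sfa-1 begins with uaf-2, whose peak of 151 is described above, so these 2 genes of 3′ splice site recognition lie downstream of the same peak. The run of rsp-4 begins with fbxl-3, which was not bound.

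When each gene was given the promoter of the first gene of its run, 31 of the 45 splicing genes (68.9%) were bound, beside 15.6% of all genes. This count gained the 9 genes above and lost rsp-6 and snrp-3, which are in positions 4 and 2 of their runs and have peaks of their own, while the first genes, sgo-1 and hst-1, were unbound. It was computed after the values were seen. Of the 14 genes unbound by this measure, 11 were first in their own run: snr-3, snr-5, snr-7, rsp-5, uaf-1, prp-4, prp-6, prp-17, prp-21, sftb-2 and snu-23.

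Peaks of the splicing genes lay outside coding sequence and mostly in promoter regions that serve both strands. Of the 22 summits 20 lay between protein-coding genes, of which those of snr-4 and of rsp-7 and snu-13 fell in noncoding RNA genes as given above. The other 2 were in a 5′ UTR, and none lay in a coding exon or an intron. For 20 of the 24 bound genes (83.3%) the strongest peak also lay in the window of a gene on the opposite strand, beside 48.5% of all bound genes, and the exceptions were snr-4, snrp-3, rsp-6 and rsp-8. A shared peak cannot be assigned to either gene by position alone. When each peak was given only to its nearest 5′ end, 16 splicing genes were bound, beside 11.6% of all genes. The genes lost were prp-19, rsp-2, rsp-3, snr-1, snr-2, snu-13, snu-66, sftb-1 and sftb-6, and snu-23 was gained. With a narrower window, 500 bp upstream and 100 bp downstream, 22 were bound, beside 9.61% of all genes, and prp-19 and rsp-8 were lost.

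The distance of the summit from the 5′ end was like that of other bound genes. The median was 240 bp upstream over the 24 splicing genes and 238 bp upstream over all 2461 bound genes. Within 500 bp upstream lay 21 of 24 summits (87.5%), beside 72.7% of all bound genes. The median signal was 222, beside 164 over all bound genes, and 19 of the 24 (79.2%) lay above the median of the thresholded list, beside 60.3%. By chromosome, 8 of 12 splicing genes were bound on III, 5 of 7 on IV, 6 of 12 on II, 2 of 6 on V, 2 of 7 on I and the single one on X. Among all genes the shares bound were 18.3% on III, 11.8% on IV, 12.3% on II, 8.13% on V, 18.2% on I and 8.71% on X, so the low count on I did not go with a low share there in general.

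**Figure D2:**
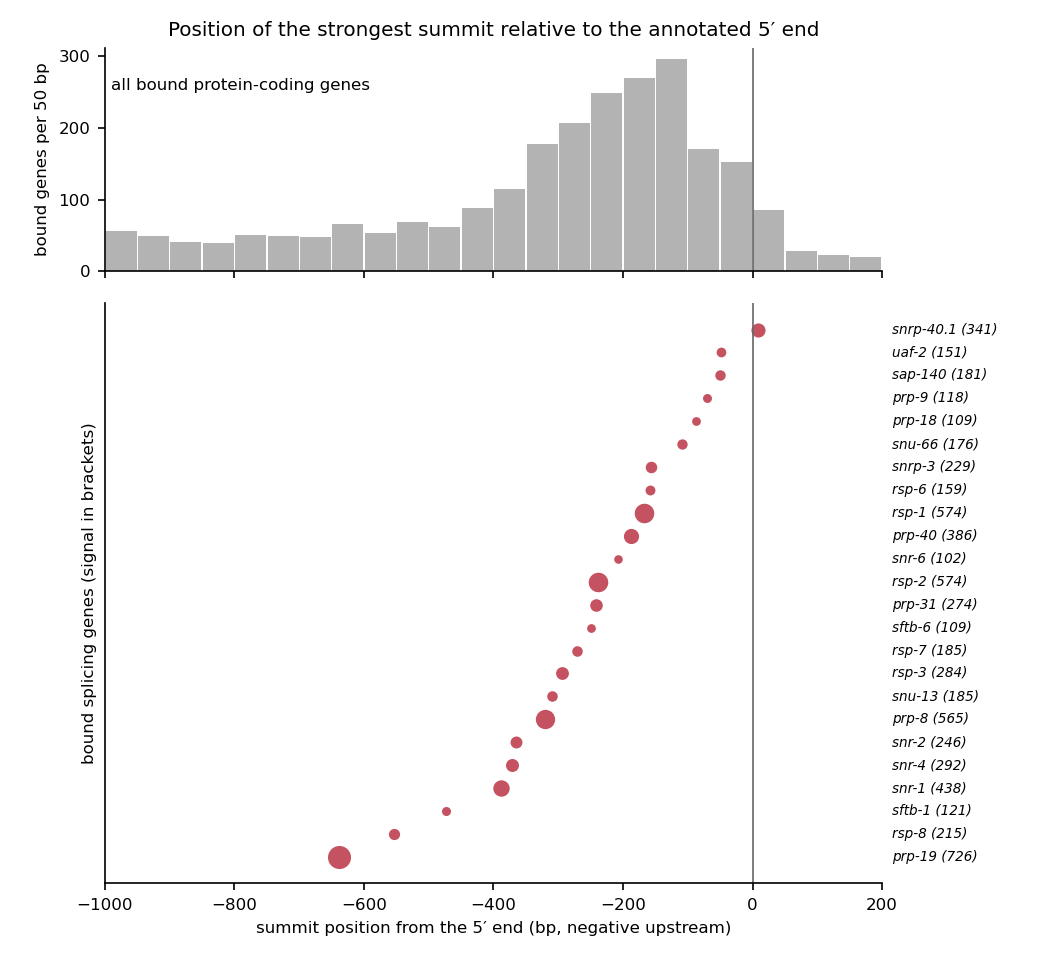
Position of the strongest summit from the annotated 5′ end in bp, negative upstream. The upper plot counts all 2461 bound protein-coding genes in steps of 50 bp; the lower plot shows the 24 bound splicing genes, with point area growing with signal and the signal in brackets. All but snrp-40.1 lie upstream, and prp-19 is the farthest at 639 bp.

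The replicates gave close signals at the 4 strongest of these peaks, and the others varied. For 21 of the 22 peaks a summit was found within 100 bp in both replicates, and replicate 3 had the higher signal in 14 and replicate 1 in 7. On the log2 scale the ratio of replicate 1 over replicate 3 was -0.09 at the median of these peaks (SD 0.50), beside 0.10 (SD 0.50) for 1824 promoter peaks. Without snu-66, where the matched summits lie apart, the SD over the other 20 peaks was 0.32 and the median -0.08. At the 4 strongest peaks the ratio lay between -0.10 and -0.03, and the lowest was -1.84 at snu-66. The highest was 0.63 at prp-9. At prp-40 and snrp-40.1, the next in signal, the ratio was 0.47 and -0.39. At the weak peaks of prp-18 and snr-6 it was 0.01 and 0.13. A difference such as that between sap-140 and snu-66, with signals of 181 and 176, is smaller than this spread between replicates.

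**Figure D3:**
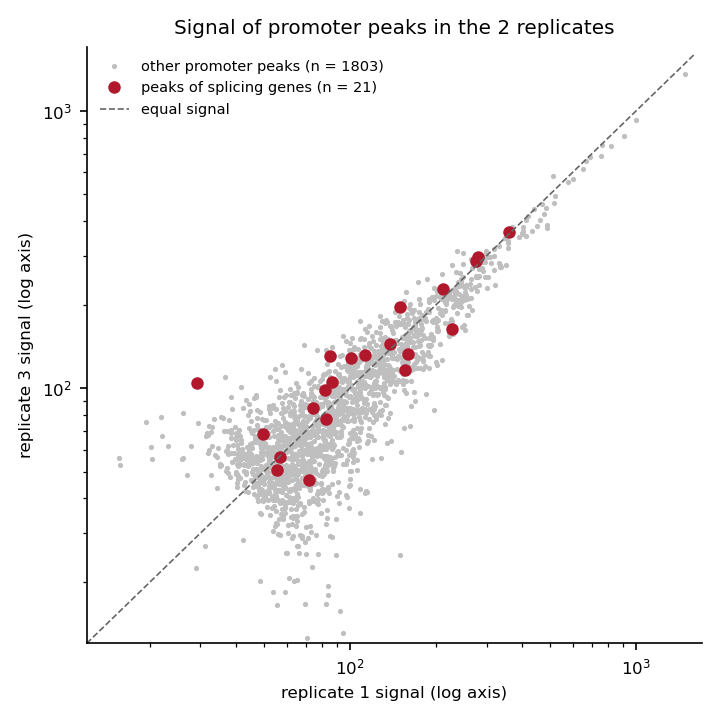
Signal in replicate 1 against replicate 3 on log axes for promoter peaks matched to a summit of each replicate. Red points are the 21 peaks of splicing genes and grey points the other 1803; the dashed line is equal signal. The 4 strongest red points lie near the line, and the 1 far to the left is snu-66.

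ATTF-5 is named for the AT hook, a short motif known to contact the minor groove of AT-rich DNA. The summits at splicing genes were not AT-rich. Within 50 bp of the 22 summits the median share of A and T was 50.5%, from 40.6% at snrp-40.1 to 82.2% at prp-9, beside a median of 53.5% over all 1891 promoter peaks. The flanks at 150 to 200 bp had a median of 67.5%, and the median difference between flank and summit was 16.5 percentage points, beside 11.5 over all promoter peaks. The flanks were the richer in 19 of 22 peaks (86.4%), beside 84.0% of all promoter peaks. The exceptions were snrp-3, prp-9 and sftb-6, and prp-9 and sftb-6 had the highest AT shares at the summit and signals of 118 and 109.

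**Figure D4:**
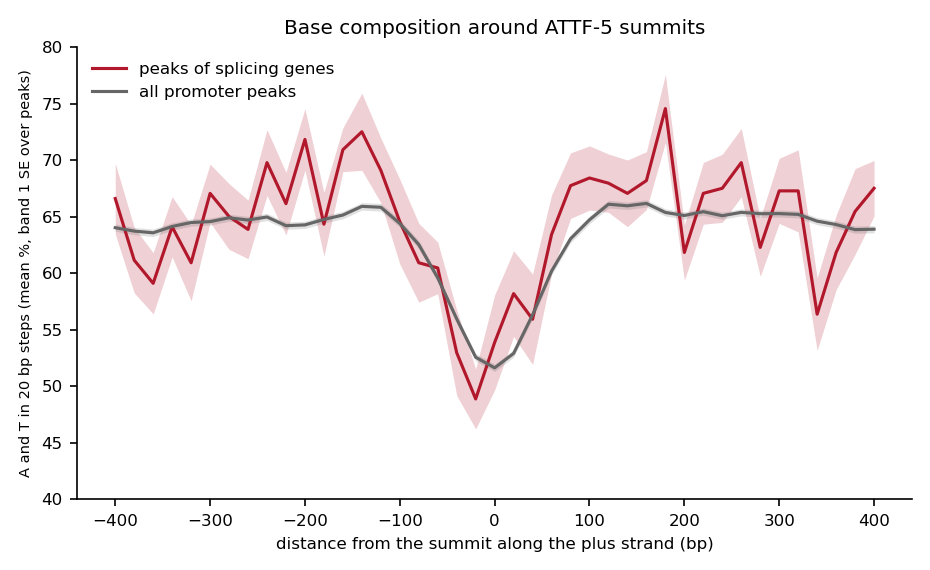
Mean share of A and T in steps of 20 bp around the summit, along the plus strand. The red line is the mean over the 22 peaks of splicing genes and the grey line that over 1891 promoter peaks; bands are 1 SE over peaks, which are not biological replicates. Both lines dip around the summit: the red line is lowest, at 48.9%, in the step 20 bp to its left, and the grey line is lowest, at 51.6%, at the summit.

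Words of 6 letters were counted within 100 bp of the summits, with each word joined to its reverse complement, which gives 2080 words. The 3 words with the largest excess in all promoter peaks over unbound promoters, and with no run of 4 letters in common, were GAGAGA, then ACGCAG, and then GAGCGC. The first, GAGAGA, was in 2 of the 22 peaks of splicing genes, at prp-18 and rsp-8, beside 36.1% of all promoter peaks and 12.4% of unbound promoters. ACGCAG was in 6 (27.3%), beside 24.2% and 4.48%, and GAGCGC in 5 (22.7%), beside 20.3% and 2.79%. The splicing gene peaks are among the 1891 promoter peaks.

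The words with the largest excess in the splicing gene peaks themselves were TTCGAA, a palindrome that equals its own reverse complement, and the CG-rich AACGCG. They were chosen on these 22 peaks, so their counts there are a description. TTCGAA was in 15 of 22 peaks (68.2%), beside 15.4% of all promoter peaks and 12.2% of unbound promoters. AACGCG was in 10 (45.5%), beside 17.9% and 3.56%. Both were in 6 peaks, either was in 19, and the 3 with neither were those of prp-40, prp-31 and snr-4. The centre of the nearest AACGCG lay 2.5 to 45.5 bp from the summit, with a median of 23 bp. That of TTCGAA lay 1.5 to 79.5 bp from it, with a median of 49.5 bp. The search reached only 100 bp on either side, and distances for words placed at random were not computed. The TTCGAA distances thus do not show whether it lies closer to summits than random placement would give. In the sequences above, AACGCG lay 2.5 bp from the snr-1 summit and 14.5 bp from that of rsp-1 and rsp-2, and TTCGAA 20.5 bp from that of prp-19 and 78.5 bp from that of prp-8.

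Both words were then looked for in the 500 bp before the 5′ end of genes, where the unbound splicing genes had not been used to choose them. TTCGAA was in 17 of the 24 bound splicing genes (70.8%) and 10 of the 21 unbound ones (47.6%), beside 34.6% of all bound and 26.9% of all unbound genes. Of the unbound ones it was in 8 of the 11 that were first in their run and in 2 of the 10 that were not. These 8 genes, of which snr-3 and rsp-5 share a promoter region, were snr-3, snr-5, snr-7, rsp-5, prp-4, prp-21, sftb-2 and snu-23. A gene not first in its run begins under 500 bp from the preceding gene, so its 500 bp reach into that gene. The counts of first and later genes thus read unlike sequence. Shares over all unbound genes split in this way were not computed. AACGCG was in 9 of the 24 bound genes (37.5%) and in 2 of the 21 unbound ones (9.52%), snr-3 and rsp-4, beside 21.5% of all bound and 8.55% of all unbound genes. For the bound genes these 500 bp overlap the peaks on which the words were chosen, and no test was made.

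A further list held genes taken as core splicing genes that the symbol rule leaves out. Examples are the Lsm ring, with lsm-1 counted in it, the other proteins of the Prp19 complex and the factors of snRNP assembly. The sorting into this list and the regulators below was by hand and rests on judgement. For example, rbm-22 was placed with the regulators. Of the 72 genes of the core list 29 were bound (40.3%), beside 12.3% of all protein-coding genes. The 5 strongest were mog-4, which encodes a DEAH-box helicase, with 696, plrg-1 with 533, syf-2 of the Prp19-associated proteins with 502, lsm-7 of the Lsm ring with 456 and rsr-1 with 444. TTCGAA was in the 500 bp before 48 of the 72 (66.7%), beside 27.8% of all genes. It was in 22 of the 29 bound and 26 of the 43 unbound. Around the summits of the bound genes it was in 17 of 29 peaks (58.6%), beside 15.5% of the strongest peaks of all bound genes. AACGCG was in 12 of the 29 bound (41.4%) and 6 of the 43 unbound (14.0%), beside 21.5% of all bound and 8.55% of all unbound genes. Around the summits AACGCG was in 12 of 29 peaks, beside 18.4%. This list was not used to choose the words.

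Regulators that act on particular alternative exons, such as the hnRNP, TIAR and CELF proteins, had 10 of 24 genes bound (41.7%). Among all genes 12.3% were bound. The 5 strongest were fust-1 with 691, tiar-2 with 321, ccar-1 with 222, hrpf-2 with 194 and tiar-1 with 172. TTCGAA was in the 500 bp before 6 of the 24 and in 2 of their 10 peaks, and AACGCG before 4 of the 24 and in 3 of the 10 peaks. For comparison, TTCGAA was before 30 of 78 ribosomal protein genes (38.5%) and 11 of 33 proteasome subunit genes (33.3%). It was in 9 of 62 (14.5%) and 3 of 16 (18.8%) of their peaks. AACGCG was in 8 of those 62 peaks (12.9%) and 4 of those 16, beside 18.4% of the strongest peaks of all bound genes. A match to a word is not a binding site, and no statement is made about which factor might read it.

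**Figure D5:**
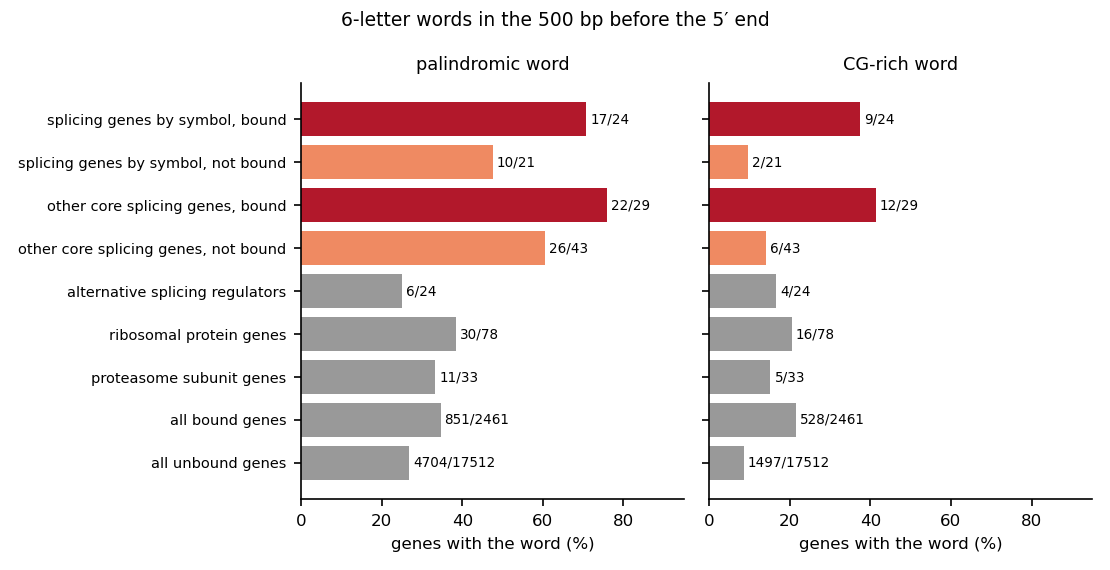
Percent of genes with each word in the 500 bp before the 5′ end, with counts at the bars; the left plot is TTCGAA and the right plot AACGCG. Red bars are bound and orange bars unbound core splicing genes, and grey bars are other sets. The palindromic word ranges from 47.6% to 75.9% in the 4 sets of core splicing genes and reaches at most 38.5% in the others. The CG-rich word is at 37.5% and 41.4% in the bound sets of core splicing genes. It is at most 21.5% in the other sets as plotted. The regulator, ribosomal and proteasome sets were not split into bound and unbound genes. Their bars thus cannot show whether the CG-rich word is particular to bound core splicing genes.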

How the data were processed

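The data were ChIP-seq peak lists of 2 biological replicates of 1 group. Per the labels, the authors made each replicate list from that replicate's alignments and a control, a pooled list from both, and a thresholded list by the irreproducible discovery rate. The sources used here give no aligner, peak caller or read depth. The deposited signal of each region (column 7 of 10) was used as given. The deposited −log10 q was not used for any result, and the score and p-value columns held fill values. Coordinates were ce11.

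Genes were from Ensembl release 115 and bases and gene products from the RefSeq assembly and annotation. Replicate summits were matched within 100 bp, taking the strongest. Unbound promoters were read at the position 238 bp upstream of the 5′ end, the median of bound genes. Python 3.11.15 with numpy 2.4.6, pandas 2.3.3 and matplotlib 3.10.9 was used, and the gene calls were tested on simulated summits. The members and lists were chosen with earlier results of these data known. The functional classes, the runs of genes, the words and the ribosomal and proteasome sets were chosen after values were seen. Of 76 other core genes and 27 regulators listed, 72 and 24 were used. A listed gene was used if its symbol or a synonym matched a gene outside the symbol rule. Regulators already among the other core genes were left out. All splicing genes are named: the bound ones with their signal, the 12 strongest peaks with coordinates and replicate values, the unbound ones with their strongest pooled region, and of the other 2 lists the 5 strongest bound genes. No test was made: 1 group allows none between conditions. Alternatives were another window, the nearest 5′ end, all transcripts, overlap by any base, stricter peaks, pooled regions, either replicate alone and the first gene of a run.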

Additional observations from a re-analysis of the deposited data

How the results depend on the processing

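The count of 24 bound splicing genes lay between 16 and 31 under 11 alternatives, and 9 genes were bound under all of them: prp-8, prp-31, prp-40, rsp-1, rsp-7, sap-140, snr-4, snrp-40.1 and uaf-2. The strongest regions of replicate 3 alone gave 24 and those of replicate 1 alone 23, without sftb-1 and sftb-6 and with snrp-200. The other core splicing genes fell from 29 to 19 with the nearest 5′ end (11.6% of all genes) and to 17 with signal above the median of the list (7.43% of all genes). The regulators fell to 7 with signal above the median of the list (7.43% of all genes). They rose to 12 with the first gene of a run (15.6% of all genes). With the nearest 5′ end the median signal was 200.0 and the median offset -177.5 bp. With signal above the median of the list the median signal was 274, since weaker peaks were left out. The small window gave a median offset of -223 bp. Without 1 replicate the median signal was 101 to 123, on the scale of the lists of single replicates, the median offset -211 to -187 bp and the median AT share 50.5% to 51.0%. The AT share was 51.0% within 25 bp and 58.2% within 100 bp of the summit. In all, 52 values stayed within their limit, 13 moved by more and none changed sign. For counts the limit was a change of 1.5-fold. The fall of the main count from 24 to 16 with the nearest 5′ end was at this limit and was counted as within it. No paired analysis was possible because there was 1 group. Depth was not given, so the limit for unbound genes is not known. Shared promoters and the window decide which gene a peak is given to.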
